A study of Mus musculus with 2 samples.

Results

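MHC class I molecules are built from a polymorphic heavy chain and the invariant light chain beta-2 microglobulin. The 10 genes described here are the classical heavy chain genes H2-K1 and H2-D1, the light chain gene B2m, 6 genes for non-classical heavy chains (H2-T23, H2-T22, H2-Q4, H2-Q6, H2-Q7 and H2-M3) and Nlrc5, which encodes the transactivator of class I genes. They were taken by symbol from a list, and all 10 were found among the 32285 gene rows of each count table. The study made droplet single-cell RNA libraries with a 3' kit, version 3.1, from BALB/c mice bearing CT26 tumours, CT26 being a colon carcinoma line of that strain. There was 1 library of the PTIR1-expressing genotype and 1 library of the mock genotype, both from tumour tissue and both labelled as tumour-infiltrating lymphocytes. The labels give no age, no day after grafting, no number of animals behind a library, no clone of the line and no promoter that drives PTIR1. The title of the series places PTIR1 as a suppressor of the immunoproteasome, and the comparison made here asks how the class I genes differ between the libraries in each kind of cell. The level of PTIR1 itself was not analysed here, so the genotypes were taken from the labels. Which cells express PTIR1 was therefore not examined. Before the name of a cell class, PTIR1 or mock names the library and does not mean that those cells express PTIR1.

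Class I molecules carry peptides cut by the proteasome to the cell surface, where CD8 T cells inspect them. NK cells read class I molecules through inhibitory receptors, and H2-T23, which encodes Qa-1, is read by the CD94 and NKG2A receptor pair. NLRC5 does not bind DNA on its own: it joins an enhanceosome of RFX, CREB or ATF and NF-Y proteins on an X and Y box module in class I promoters. Interferon gamma raises class I genes and Nlrc5, in part through IRF1, and NF-kappa B acts on an enhancer of the classical genes. H2-Q7 and H2-Q6 belong to the Qa-2 group, H2-M3 presents peptides that begin with N-formyl methionine, and H2-T22 is a ligand of some gamma delta T cells.

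On the mm10 build with GENCODE M21, H2-K1 lies on chr17:33996017-34000347 on the minus strand and H2-D1 on chr17:35262730-35267499 on the plus strand. H2-Q4, H2-Q6 and H2-Q7 follow on the plus strand at chr17:35379617-35385290, chr17:35424850-35430055 and chr17:35439155-35443773. H2-T23 and H2-T22 are neighbours on the minus strand, at chr17:36029773-36032855 and chr17:36037128-36042747, and H2-M3 lies at chr17:37270220-37274484 on the plus strand. B2m lies outside the complex, at chr2:122147686-122153083, and Nlrc5 at chr8:94434356-94527272, both on the plus strand. BALB/c mice carry the H-2d haplotype, with Kd, Dd and Ld molecules, whereas the reference is the C57BL/6 genome of haplotype H-2b, which has no gene for an L molecule. Counts on these rows are therefore reads of other alleles that aligned to the b alleles, and reads of Ld may have been counted on H2-D1 or on another row. Of the 91-base windows in the last 500 bases of the reference transcripts, those shared with another gene made up 26.6% for H2-Q6, 12.9% for H2-T22 (with H2-T10) and 8.85% for H2-D1, so these 3 rows are uncertain. The share was 2.19% for H2-K1, 4.24% for H2-T23, 7.07% for H2-Q4 and 3.72% for H2-Q7, and no window of B2m, H2-M3 or Nlrc5 was shared. How strand was used in counting is not given in the sources used here. The antisense row over H2-T23 and H2-T22, A930015D03Rik, held 690 UMIs in the PTIR1 library and 738 in the mock library, and that over H2-Q4, Gm11131, held 124 and 203.

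Promoters are shown for 4 members because they differ in the elements through which NLRC5, interferon and NF-kappa B are known to act. RefSeq promoters on GRCm38.p6, running from 250 bases before to 50 bases after the RefSeq start of the gene, were matched for 9 of the 10 members. They are sequences of the reference and not of the BALB/c alleles. For H2-D1 and H2-T23 the RefSeq start lies inside the GENCODE gene given above. The H2-D1 window therefore lies wholly within that gene and the H2-T23 window mostly. Motifs were searched on both strands, and capitals mark every match. The NF-kappa B motif was GGG and TTNCC with 2 bases between them, present in 4.71% of 27018 mouse promoters. The interferon response element was searched as GAANNGAAA, present in 7.57%, and as GAAA and GAAA with 2 bases between them, present in 3.49%, and neither spelling contains the other. The core of the X2 box was TGACG, present in 21%, and the Y box was ATTGG, present in 37.9%. A match is a description of the letters and does not show that a protein binds. The H2-K1 promoter (chr17:34000298-34000597, minus strand), the H2-D1 promoter (chr17:35262844-35263143, plus strand), the B2m promoter (chr2:122147437-122147736, plus strand) and the H2-T23 promoter (chr17:36032652-36032951, minus strand) read as follows, 5' to 3' on the strand of the gene.
H2-K1: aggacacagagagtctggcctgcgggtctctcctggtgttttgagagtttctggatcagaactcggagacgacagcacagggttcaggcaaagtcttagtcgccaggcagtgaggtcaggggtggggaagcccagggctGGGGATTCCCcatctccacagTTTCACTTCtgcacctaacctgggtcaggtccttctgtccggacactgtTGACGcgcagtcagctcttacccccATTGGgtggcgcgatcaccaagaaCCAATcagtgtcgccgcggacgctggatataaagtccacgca
H2-D1: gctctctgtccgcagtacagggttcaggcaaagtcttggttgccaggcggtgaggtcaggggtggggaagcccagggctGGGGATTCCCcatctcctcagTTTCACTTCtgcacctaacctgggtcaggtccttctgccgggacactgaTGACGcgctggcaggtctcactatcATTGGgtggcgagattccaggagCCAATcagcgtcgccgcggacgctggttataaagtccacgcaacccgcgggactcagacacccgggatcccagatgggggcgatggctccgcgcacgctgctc
B2m: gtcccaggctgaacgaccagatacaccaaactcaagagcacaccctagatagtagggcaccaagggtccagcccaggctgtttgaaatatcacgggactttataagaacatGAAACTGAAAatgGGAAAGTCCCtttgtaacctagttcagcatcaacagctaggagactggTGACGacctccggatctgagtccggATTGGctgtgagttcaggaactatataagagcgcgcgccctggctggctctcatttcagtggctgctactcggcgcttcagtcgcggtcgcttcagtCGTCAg
H2-T23: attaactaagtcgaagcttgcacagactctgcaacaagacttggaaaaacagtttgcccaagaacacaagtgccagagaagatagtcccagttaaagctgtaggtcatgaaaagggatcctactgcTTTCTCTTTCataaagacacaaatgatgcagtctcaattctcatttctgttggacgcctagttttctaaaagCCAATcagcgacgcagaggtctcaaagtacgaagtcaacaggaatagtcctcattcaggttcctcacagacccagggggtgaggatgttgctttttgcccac

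A module of TGACG followed on the same strand by ATTGG, with 10 to 30 bases between them, was present in 0.411% of all promoters. Of the 9 members with a promoter, 5 held it, namely H2-K1, H2-D1, B2m and H2-M3 with 20 bases between the boxes and H2-Q7 with 19. The windows of H2-T23, H2-T22, H2-Q4 and H2-Q6 did not hold these letters in that arrangement. An NF-kappa B motif was found in 6 of the 9, and an interferon element in one of its spellings in 9 of 9. H2-T23 had neither the module nor the NF-kappa B motif in this window, and had the longer spelling of the interferon element and a single Y box. The H2-K1 and H2-D1 promoters carried the same order of NF-kappa B motif, interferon element, X2 core and Y box.

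The PTIR1 library held 9006 barcodes and 98540561 UMIs (unique molecular identifiers, each standing for 1 captured transcript), and the mock library 10833 barcodes and 95166611 UMIs. After filters and removal of doublets, 7109 PTIR1 and 8632 mock barcodes were kept, of median depth 6651 and 3169.5 UMIs. The libraries shared 30 barcode sequences. Barcodes were put in classes by marker transcripts, and 11 classes with at least 20 barcodes in each library were compared. Despite the label, the class of macrophages or monocytes was the largest, with 2189 PTIR1 and 3387 mock barcodes, and T cells numbered 115 and 268. The fibroblast class held 562 PTIR1 barcodes and 33 mock barcodes, and the CT26 tumour class 124 and 161. The class named for CT26 rests on markers such as Krt18, Krt20, Tm4sf1 and Areg, since Krt19, Cldn4 and Epcam were near 0. In the fibroblast class the summed CT26 markers stood at 65.1% of the tumour class level in the PTIR1 library and 65.6% in the mock library, so those 2 classes are not cleanly separate. Barcodes with markers of 2 classes (444 PTIR1, 330 mock) and barcodes that met no gate (1987 PTIR1, 3221 mock) were left out.

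Levels are given in CPM, the UMIs of a gene after the UMI total of each class and library is scaled to the same size. Because the 3' kit counts transcript ends, they are not divided by length. Intervals are 95% intervals that cover counting error only. With 1 library per genotype there is no spread between tumours, no test was made, and the genotype cannot be told apart from anything else that differed between the 2 libraries.

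H2-K1 was highest in mature dendritic cells, which migrate and prime T cells, at 2464 CPM in the PTIR1 library and 2611 CPM in the mock library. T cells (1927 and 2247 CPM), NK cells (1892 and 1829 CPM) and plasmacytoid dendritic cells (1876 and 1610 CPM) came next, and their intervals overlapped in the PTIR1 library. Neutrophils were lowest, at 539 CPM in the PTIR1 library and 610 CPM in the mock library, below CT26 tumour cells at 721 and 904 CPM. H2-D1 also peaked in mature dendritic cells, at 5749 and 6159 CPM, and was lowest in B cells, at 2515 and 2829 CPM. B2m was highest in mature dendritic cells, at 4906 and 5459 CPM. The lowest B2m level was that of CT26 tumour cells in the PTIR1 library, at 1580 CPM, and that of B cells in the mock library, at 1872 CPM. Every class held the classical genes and B2m in both libraries.

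Of the non-classical genes, H2-T23 and H2-Q7 spanned the widest range of levels between classes. H2-T23 was highest in plasmacytoid dendritic cells, the producers of type I interferon, at 1007 CPM in the PTIR1 library and 819 CPM in the mock library, apart from every other class in both. It was lowest in CT26 tumour cells, at 24.7 and 38.1 CPM, followed by fibroblasts at 88.9 and 189 CPM. H2-Q7 stood at 222 and 253 CPM in mature dendritic cells and at 201 and 249 CPM in T cells, against 5.59 and 3.68 CPM in CT26 tumour cells and 6.64 and 13.1 CPM in fibroblasts. H2-Q4 was different, since fibroblasts (268 and 407 CPM) ranked second after mature dendritic cells (481 and 532 CPM), and CT26 tumour cells held 137 and 190 CPM. H2-T22 was highest in T cells, at 162 and 224 CPM, where the interval overlapped that of plasmacytoid dendritic cells in the PTIR1 library and that of fibroblasts in the mock library. H2-M3 was highest in plasmacytoid dendritic cells, at 110 and 79.0 CPM, and its neighbours in the order overlapped at least down to macrophages. H2-Q6 did not pass 26.2 CPM in any class.

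Nlrc5 was a rare transcript, at 11.6 CPM over all kept PTIR1 barcodes and 20 CPM over all kept mock barcodes. T cells held the most, 30.2 CPM in the PTIR1 library and 46.0 CPM in the mock library, and the intervals of mature dendritic cells (26.3 and 45.8 CPM) overlapped them. CT26 tumour cells held 3.65 and 6.41 CPM, from 32 and 101 UMIs. Across 22 points, each 1 class in 1 library, the 5 genes whose log2 level followed that of Nlrc5 most closely among 3689 genes included Parp14 (Pearson's r = 0.88), Trafd1 (0.86), Tap1 (0.82) and Crem (0.81). For H2-K1 they were Csnk1a1 (0.84), Rbl2 (0.83), Arl5a (0.82), Ap3b1 (0.80) and Ubxn2a (0.80). The r of H2-K1 with B2m was 0.85 and with Nlrc5 0.42. These points share libraries and cell types and are not independent.

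**Figure D1:**
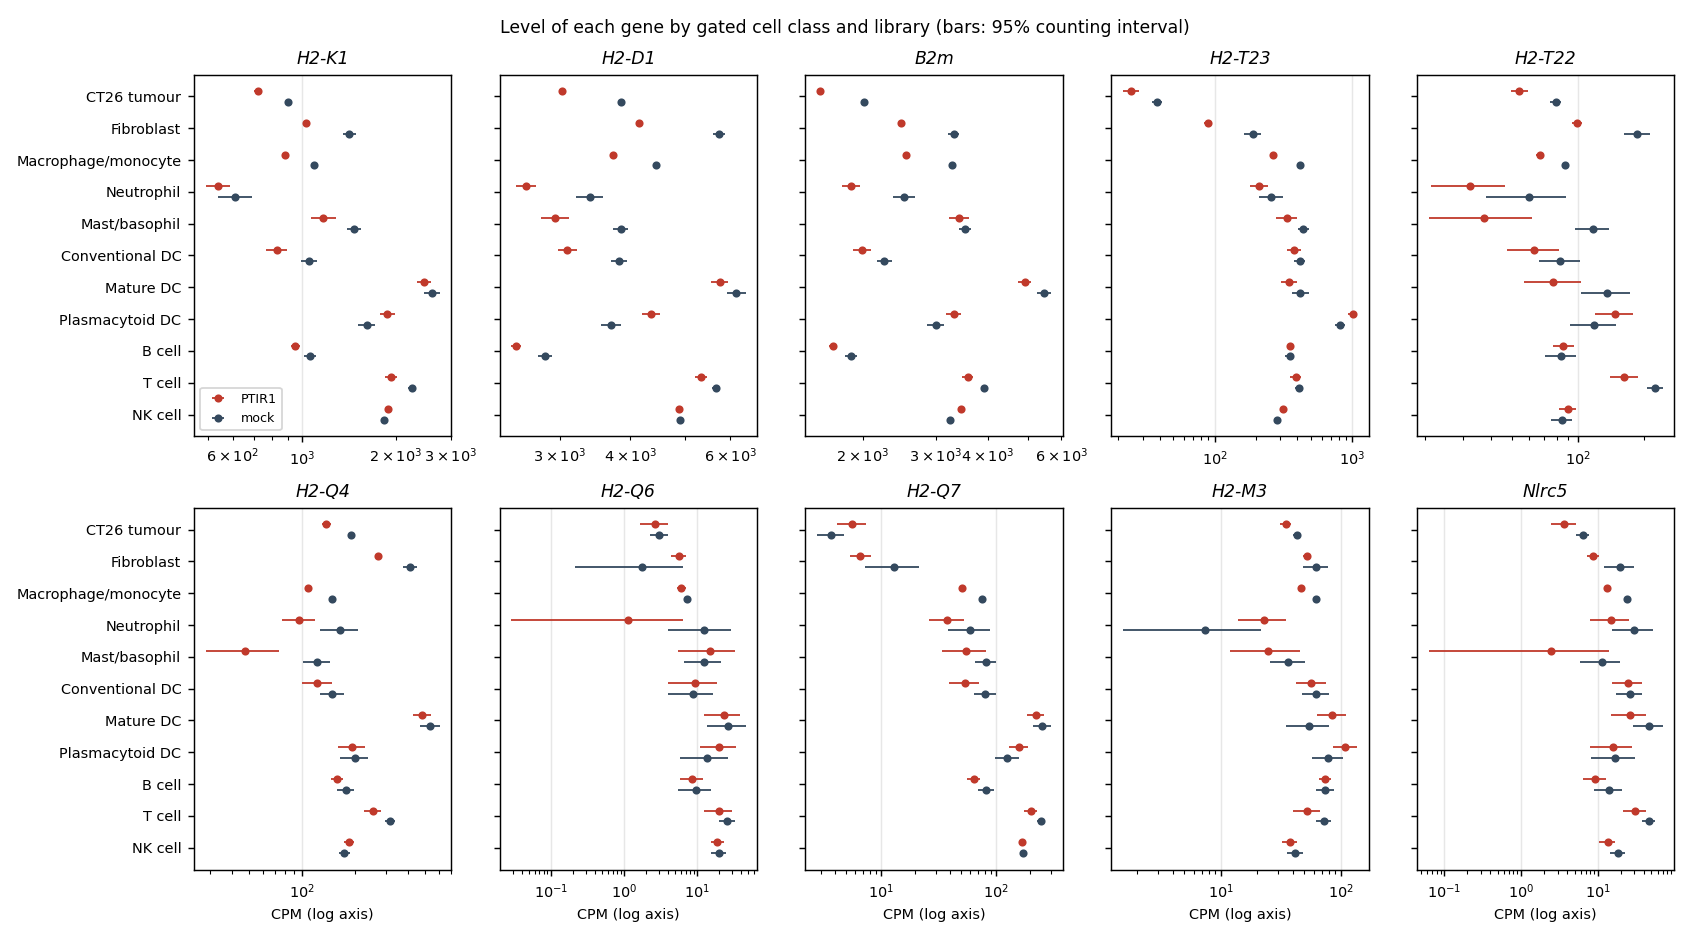
Level of each of the 10 genes (CPM of the class, log axis) in 11 gated classes, with the PTIR1 library (red) above the mock library (dark blue) in each pair and bars giving the 95% counting interval. Mature dendritic cells lead for H2-K1, H2-D1, B2m, H2-Q4 and H2-Q7, and plasmacytoid dendritic cells for H2-T23 at 1007 and 819 CPM.

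The balance between the heavy chains separated the classes into groups that were alike in both libraries. H2-K1 UMIs divided by H2-D1 UMIs came to 0.236 in PTIR1 and 0.246 in mock macrophages, 0.238 and 0.235 in CT26 tumour cells, and 0.249 and 0.247 in fibroblasts. Conventional dendritic cells lay close to them, at 0.268 and 0.276, and neutrophils lowest, at 0.206 and 0.180. The quotient was 0.361 and 0.396 in T cells, 0.388 and 0.373 in NK cells, and 0.378 and 0.376 in B cells. Mature dendritic cells (0.429 and 0.424), plasmacytoid dendritic cells (0.432 and 0.435) and mast cells or basophils (0.397 and 0.382) fell on the side of the lymphocytes. Because the b-allele rows stand for d alleles, the quotient compares classes and does not give the ratio of the proteins. The 6 non-classical rows made up 6.47% of heavy chain UMIs in PTIR1 and 6.98% in mock CT26 tumour cells, the lowest share, and 20.8% and 20.3% in plasmacytoid dendritic cells, the highest.

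**Figure D2:**
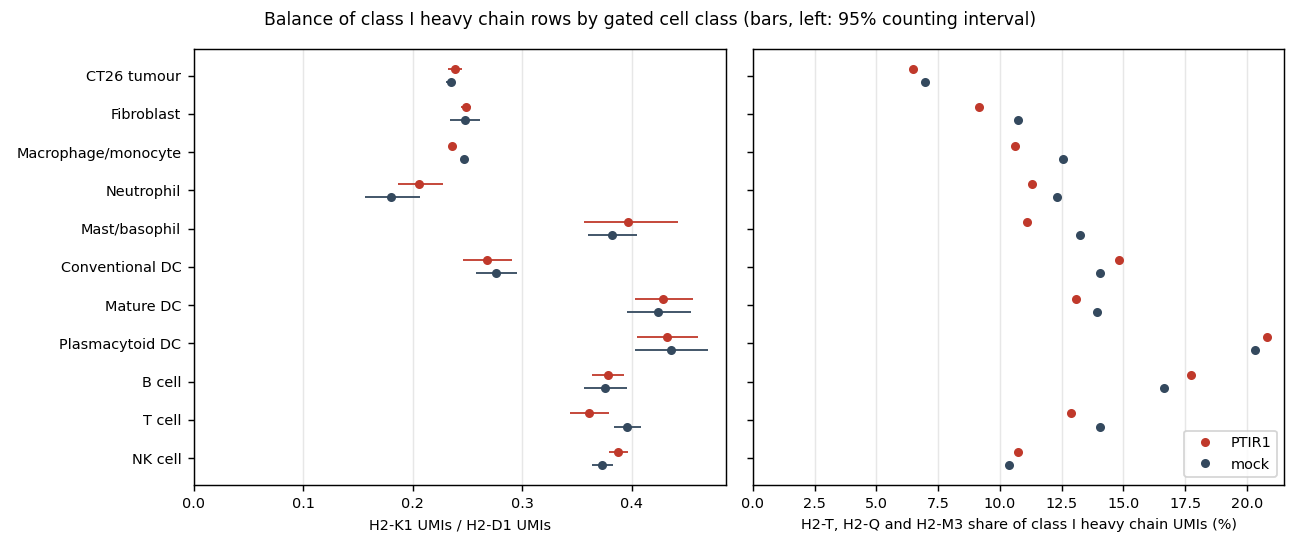
Left, H2-K1 UMIs divided by H2-D1 UMIs with the 95% counting interval; right, the 6 non-classical rows as a percentage of heavy chain UMIs, for each class in the PTIR1 library (red, upper point) and the mock library (dark blue). Macrophages, tumour cells and fibroblasts lie between 0.235 and 0.249 on the left in both libraries, and lymphocytes between 0.361 and 0.396.

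In macrophages or monocytes all 10 genes were lower in the PTIR1 library, and Nlrc5, H2-T23 and H2-Q7 had the lowest ratios. H2-K1 stood at 879 CPM in PTIR1 macrophages and 1093 CPM in mock macrophages, a ratio of 0.804 (95% counting interval 0.792 to 0.817). H2-D1 stood at 3726 and 4441 CPM, a ratio of 0.839 (0.833 to 0.845). B2m stood at 2535 and 3280 CPM, a ratio of 0.773 (0.766 to 0.780). The presenting trio was therefore lower by a similar factor. H2-T23 held 268 CPM in PTIR1 and 415 CPM in mock macrophages, a ratio of 0.645 (0.628 to 0.663). H2-Q7 held 50.5 and 76.1 CPM, a ratio of 0.663 (0.623 to 0.706). Nlrc5 held 13.4 and 23.7 CPM, from 385 and 962 UMIs, and had the lowest ratio, 0.564 (0.50 to 0.636). The ratios of H2-Q4, H2-M3 and H2-T22 were 0.730, 0.761 and 0.768, and the interval of H2-Q6 (0.828, 0.683 to 1.001) reached 1.

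A gene was counted as lower or higher when its level differed by at least 1.5-fold between the libraries, among genes with at least 50 UMIs in the class over both libraries. In macrophages 3 of the 10 members were lower by that measure (H2-T23, H2-Q7 and Nlrc5) and 0 were higher, against a background of 2.84% lower and 6.45% higher among all 11905 genes measured. The median log2 ratio of the members was -0.39, beside -0.02 for all genes. Leaving out the 5 deepest barcodes of each library left the median at -0.39, but among 2189 PTIR1 and 3387 mock barcodes so few could move it little.

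Transcripts of the interferon gamma response moved with class I in macrophages, and the genes upstream of class I were mixed. All 12 genes of the response list were lower by at least 1.5-fold in PTIR1 macrophages, with a median log2 ratio of -0.92. Iigp1, an immunity-related GTPase, held 36.2 CPM in PTIR1 and 109 CPM in mock macrophages, and the guanylate-binding protein gene Gbp2 66.7 and 155 CPM. Among 12 genes upstream of class I, 7 had a ratio below 1 and 5 above, with a median log2 ratio of -0.09, and 3 were lower by 1.5-fold and 0 higher. They included the transcription factor gene Irf1 (57.4 CPM in PTIR1 and 110 CPM in mock macrophages), which is also on the response list, and Socs1 (35.5 and 53.4 CPM), an inhibitor of the pathway. The receptor gene Ifngr1 was higher, at 194 and 156 CPM, a ratio of 1.24 (1.20 to 1.29). Of the 8 DNA-binding partners of NLRC5, 0 were past 1.5-fold in either direction. Their median log2 ratio was -0.06, and Rfx5 held 4.07 CPM in PTIR1 and 4.22 CPM in mock macrophages.

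Macrophage barcodes were then graded by their own interferon response, as the UMIs of the 12 response genes among 2000 UMIs drawn from each barcode. The PTIR1 library had 46.0% of its graded macrophages at 0 such UMIs and 7.09% at 6 or more, and the mock library 30.3% and 18.6%. Barcodes under 2000 UMIs, 356 in the PTIR1 library and 848 in the mock library, were left out. Class I levels climbed with the grade in both libraries. From the lowest grade to the highest, H2-K1 stood at 720, 934, 1092 and 1319 CPM in PTIR1 macrophages, and at 817, 974, 1278 and 1572 CPM in mock macrophages. Nlrc5 stood at 7.43, 12, 21.2 and 49.0 CPM in PTIR1 macrophages, and at 10.0, 17.9, 27.7 and 51.3 CPM in mock macrophages. H2-T23 stood at 169, 271, 422 and 674 CPM in PTIR1 macrophages, and at 242, 321, 499 and 778 CPM in mock macrophages.

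Within a grade the PTIR1 level stayed below the mock level for H2-K1, H2-D1, B2m, H2-T23, H2-Q4, H2-Q7 and H2-M3 in each of the 4 grades. The H2-K1 ratio was 0.882 at grade 0, 0.959 at 1 to 2, 0.854 at 3 to 5 and 0.839 at 6 or more. The Nlrc5 ratio was 0.741, 0.666, 0.766 and 0.956 over the same grades, and its interval included 1 in the upper 2 grades. H2-T22 was different, with ratios of 0.890, 0.991, 1.002 and 1.11. The H2-T23 ratio, 0.645 over the whole class, was 0.699, 0.842, 0.844 and 0.866 within grades. Irf1 belongs to the grading list, and a grade is an interval of counts within which the libraries may still differ.

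**Figure D3:**
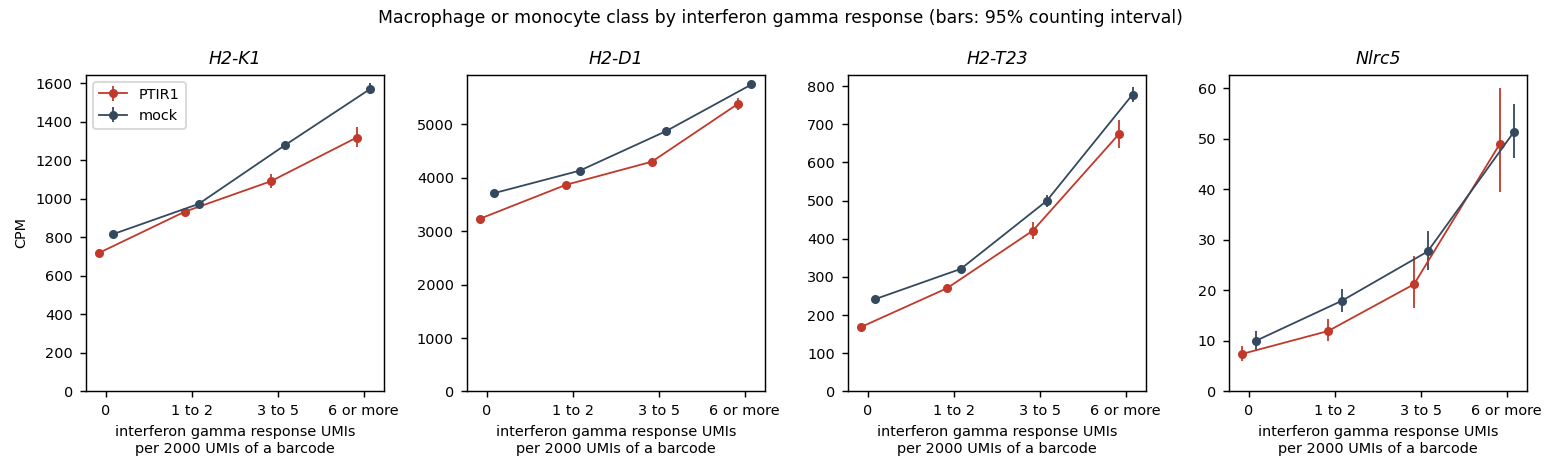
H2-K1, H2-D1, H2-T23 and Nlrc5 (CPM, linear axis from 0) in macrophages or monocytes at 4 grades of interferon gamma response, for the PTIR1 library (red) and the mock library (dark blue), with bars giving the 95% counting interval. All 4 genes climb with the grade in both libraries, Nlrc5 to 49.0 CPM in PTIR1 and 51.3 CPM in mock macrophages.

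In CT26 tumour cells the summed levels of 9 of the 10 genes were lower in the PTIR1 library, but the size of the difference depended on the deeper barcodes. H2-K1 held 721 CPM in PTIR1 and 904 CPM in mock tumour cells, a ratio of 0.797 (0.774 to 0.821). H2-D1 held 3025 and 3856 CPM, a ratio of 0.784 (0.773 to 0.796), and B2m 1580 and 2016 CPM, a ratio of 0.784 (0.768 to 0.799). Nlrc5 had a ratio of 0.569 (0.370 to 0.855) and H2-T23 one of 0.650 (0.554 to 0.760). H2-Q7, a minor transcript in these cells, was higher, at 5.59 CPM in PTIR1 and 3.68 CPM in mock tumour cells, from 49 and 58 UMIs. By the 1.5-fold measure 2 members were lower (H2-T23 and Nlrc5) and 1 higher (H2-Q7), with a background of 6.68% lower and 4.13% higher among 10231 genes. The median log2 ratio was -0.35, against -0.08 for all genes.

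Tumour barcodes were large, with a median of 54501.5 UMIs in the PTIR1 library and 78381 in the mock library. Split at pooled depths of 53935.7 and 82660.7 UMIs, H2-K1 stood at 962 CPM in shallow, 746 CPM in middle and 581 CPM in deep PTIR1 barcodes. In the mock library it stood at 939, 845 and 920 CPM. For H2-K1 the counting intervals of the shallow barcodes (61 PTIR1, 34 mock) overlapped, and those of the deep barcodes (21 PTIR1, 74 mock) were apart. They were also apart in the middle barcodes, at 714 to 779 CPM in the PTIR1 library and 814 to 876 CPM in the mock library. B2m stood at 2186, 1664 and 1212 CPM in PTIR1 barcodes and 2424, 2101 and 1948 CPM in mock barcodes, with intervals apart at each depth (2122 to 2251 CPM in PTIR1 and 2334 to 2516 CPM in mock shallow barcodes). The summed interferon response list stood at 297, 109 and 117 CPM in PTIR1 barcodes and at 369, 241 and 461 CPM in mock barcodes. Deep barcodes held 45.4% of the class UMIs in the PTIR1 library and 70.5% in the mock library. When every barcode weighed the same, the log2 ratio of H2-K1 was -0.08 in place of -0.33, that of H2-D1 -0.16 in place of -0.35, and the median of the members -0.07. Without the 5 deepest barcodes of each library the median was -0.17, and 0 members were lower by 1.5-fold under either setting. The part of depth in the difference between the libraries was not tested further.

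Single tumour barcodes differed widely in class I. H2-K1 per barcode had a median of 692 CPM and a range of 0 to 2543 CPM in the PTIR1 library, and a median of 786 CPM and a range of 49.2 to 3174 CPM in the mock library. The ranges overlapped. H2-K1 and H2-D1 went together across barcodes, with a Spearman rho of 0.82 over 124 PTIR1 barcodes and 0.79 over 161 mock barcodes, and the rho of H2-K1 with B2m was 0.69 and 0.61. At grade 0 of the interferon response (94 PTIR1 and 109 mock barcodes) H2-K1 held 626 and 777 CPM. At grade 1 to 2 (25 and 44 barcodes) it held 1133 and 1061 CPM, a ratio of 1.07 (1.01 to 1.13). Of the macrophage markers, C1q and Ms4a7 transcripts stood at 0.588% of the macrophage level in PTIR1 and 0.704% in mock tumour cells.

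**Figure D4:**
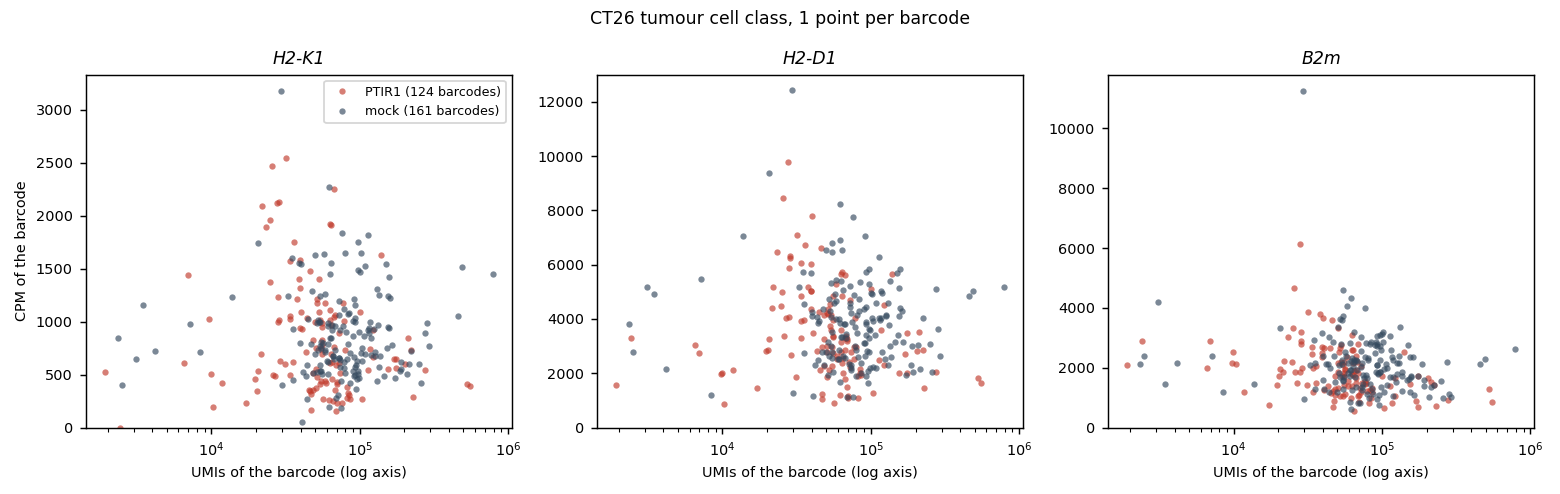
H2-K1, H2-D1 and B2m in each barcode of the CT26 tumour class (CPM of the barcode, linear axis) against the UMIs of the barcode (log axis), for 124 PTIR1 barcodes (red) and 161 mock barcodes (dark blue). The points of the libraries overlap at shallow, middle and deep barcodes. The summed H2-K1 level of the deep PTIR1 barcodes, above 82660.7 UMIs, was 581 CPM, against 920 CPM for deep mock barcodes.

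For 8 of the 10 genes the fibroblast ratio was below those of macrophages and CT26 tumour cells, the exceptions being H2-M3 (0.844) and H2-Q6. For H2-K1, H2-D1 and H2-T23 the counting interval was apart from those of both other classes. For B2m, H2-T22, H2-Q4, H2-Q7 and Nlrc5 it overlapped that of at least 1 of them. H2-K1 stood at 1030 CPM in PTIR1 and 1417 CPM in mock fibroblasts, a ratio of 0.727 (0.691 to 0.766), and H2-D1 at 4142 and 5731 CPM, a ratio of 0.723 (0.704 to 0.742). H2-T23 stood at 88.9 and 189 CPM, a ratio of 0.470 (0.406 to 0.545), and H2-T22 at 98.6 and 186 CPM, a ratio of 0.531 (0.459 to 0.617). Nlrc5 had the lowest ratio, 0.450 (0.284 to 0.746), from 119 and 22 UMIs. By the 1.5-fold measure 5 members were lower and 1, H2-Q6 with 77 and 2 UMIs, was higher, with a background of 10.1% lower and 12.1% higher. The median log2 ratio of the members was -0.54, against -0.002 for all genes. The interferon response moved with them, with 11 of 12 genes lower by 1.5-fold and a median of -1.91. Within the 4 grades of interferon response, from the lowest to the highest, the H2-T23 ratio was 1.98, 0.429, 1.06 and 1.09 and the H2-K1 ratio 1.18, 0.890, 0.847 and 0.769. These rest on 297, 201, 46 and 15 PTIR1 barcodes and 4, 13, 9 and 7 mock barcodes. The mock side of the class rests on 33 barcodes, and the class holds CT26 markers in both libraries as given above.

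**Figure D5:**
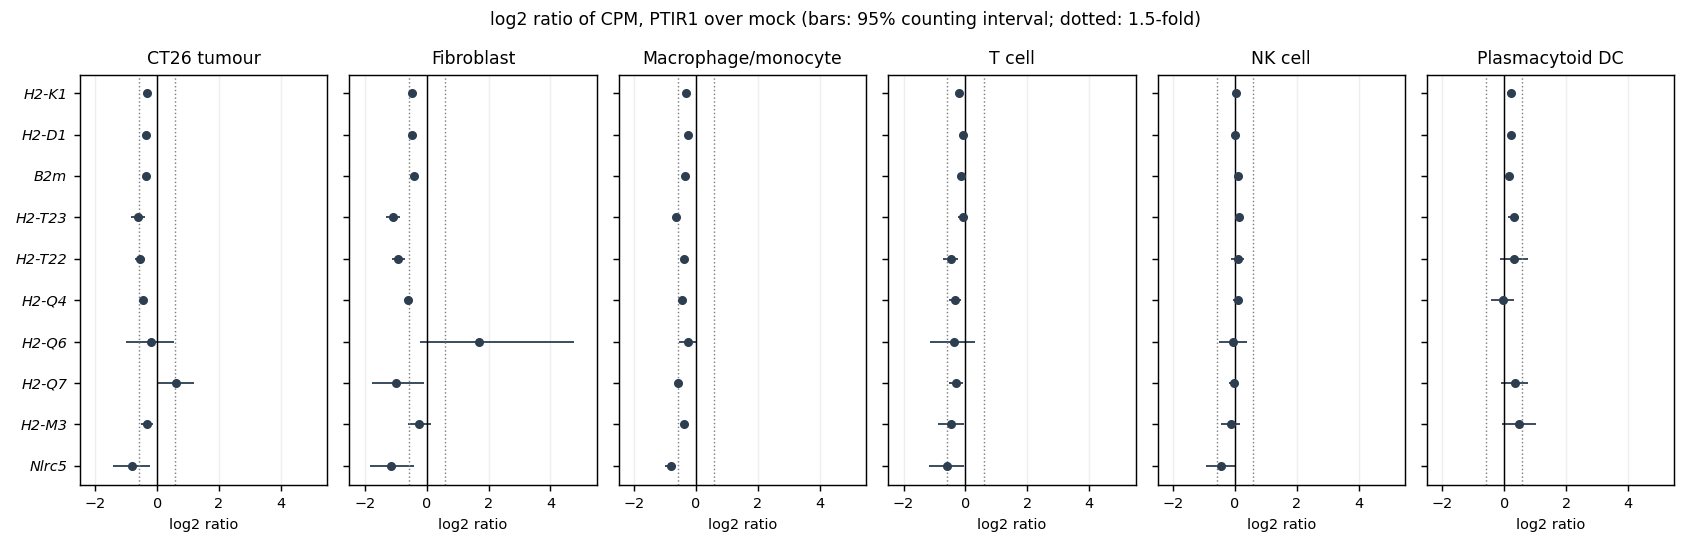
log2 ratio of CPM, PTIR1 over mock, for the 10 genes in 6 classes, with bars giving the 95% counting interval and dotted lines at 1.5-fold; genes with fewer than 50 UMIs over both libraries in a class are not drawn. Macrophages lie left of 0 for all 10 genes, NK cells close to 0, and plasmacytoid dendritic cells right of 0 for 7 of 8 genes.

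Lymphocytes differed by class. NK cells, which are calibrated by class I, had nearly equal levels: H2-K1 held 1892 CPM in PTIR1 and 1829 CPM in mock NK cells, a ratio of 1.03 (1.004 to 1.07), and H2-D1 4880 and 4902 CPM, a ratio of 0.995 (0.977 to 1.01). Nlrc5 was the farthest from 1, at 13.4 and 18.2 CPM, a ratio of 0.736 (0.523 to 1.03). None of the 10 was past 1.5-fold in NK cells (background 2.93% lower and 2.79% higher), and the median log2 ratio was 0.02. In T cells all 10 genes had a ratio below 1, with 1 past 1.5-fold, Nlrc5 (30.2 and 46.0 CPM, 35 and 121 UMIs), against a background of 8.99%. H2-K1 held 1927 CPM in PTIR1 and 2247 CPM in mock T cells, a ratio of 0.858 (0.816 to 0.900), and H2-D1 a ratio of 0.940. The T cell class differed in make-up, with 30 PTIR1 and 136 mock barcodes carrying CD8 transcripts without Cd4, Foxp3 or Cd40lg transcripts. Among those CD8 T cells H2-K1 held 1698 and 2124 CPM, and among CD4 T cells (36 and 78 barcodes) 2200 and 2597 CPM. With every barcode weighing the same, the median over the members in T cells was -0.04 in place of -0.32. B cells had ratios of 0.895 for H2-K1, 0.889 for H2-D1 and 1.01 for H2-T23, with 1 member past 1.5-fold, Nlrc5 with 35 and 25 UMIs, against a background of 5.4%.

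Plasmacytoid dendritic cells went the other way. H2-K1 stood at 1876 CPM in PTIR1 and 1610 CPM in mock cells, a ratio of 1.17 (1.07 to 1.27), from 71 and 63 barcodes. H2-D1 stood at 4347 and 3698 CPM, a ratio of 1.18 (1.11 to 1.24), and H2-T23 at 1007 and 819 CPM, a ratio of 1.23 (1.09 to 1.38). The ratio was above 1 for 7 of the 8 members measured, and the counting interval lay above 1 for 4. By the 1.5-fold measure 0 were lower and 0 higher, against a background of 5.05% lower and 4.41% higher. The median log2 ratio was 0.27. When each barcode was thinned to 1000 UMIs, the log2 ratios of B2m and H2-M3 fell below 0, to -0.14 and -0.04. The interferon response list did not move with class I here: 6 of 7 genes measured had a ratio below 1. The summed macrophage marker list stood at 43.9% of the macrophage level in PTIR1 and 46.5% in mock plasmacytoid dendritic cells, and C1q and Ms4a7 at 2.58% and 1.55%. Neutrophil markers held 429 and 52.1 CPM there, and their part in the result was not tested. Mature dendritic cells, the class with the most class I, had ratios of 0.944 for H2-K1 and 0.934 for H2-D1. Of their 8 members measured, 1 was lower (H2-T22, 47 and 62 UMIs) and 1 higher (H2-M3, 52 and 25 UMIs), against a background of 9.3% lower and 7.26% higher. Conventional dendritic cells had a ratio below 1 for 8 of 8, with H2-K1 at 0.785 (0.714 to 0.864), and 1 lower by 1.5-fold (H2-Q7) against 6.58%.

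Neutrophils and mast cells or basophils gave few UMIs per gene. In neutrophils 7 of 7 members measured had a ratio below 1, and 3 were lower by 1.5-fold (H2-T22, H2-Q4 and H2-Q7) against a background of 15.7% among 2683 genes. H2-D1 held 2616 CPM in PTIR1 and 3388 CPM in mock neutrophils. Macrophage transcripts (C1q and Ms4a7) stood at 18.5% of the macrophage level in PTIR1 and 12.6% in mock neutrophils. In mast cells or basophils 7 of 7 had a ratio below 1 and 2 were lower by 1.5-fold, against a background of 13.4%. These were H2-T22 (15 and 124 UMIs, ratio 0.320) and H2-Q4 (19 and 129 UMIs, ratio 0.389), and B2m was nearly equal at 3410 and 3528 CPM.

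Genes that supply class I with peptide were lower along with class I in macrophages, tumour cells, fibroblasts and mast cells or basophils. Most were also lower in mature dendritic cells, and they divided evenly or nearly so in neutrophils and T cells. In PTIR1 macrophages 8 of 8 loading and transport genes had a ratio below 1 and 1 was past 1.5-fold, Tap1, the peptide transporter subunit, with 91.6 CPM in PTIR1 and 138 CPM in mock macrophages. The editor gene Tapbpl held 25 and 37.5 CPM. Of the 5 immunoproteasome and activator genes 5 had a ratio below 1 and 2 were past 1.5-fold, the catalytic subunit gene Psmb9 (208 and 343 CPM) and the activator gene Psme2 (238 and 360 CPM). In CT26 tumour cells Psmb9 held 66.5 and 179 CPM and Psmb8 102 and 202 CPM, and 2 of 5 were past 1.5-fold. Tapbpl (9.35 and 20.2 CPM) and Tap1 (25.7 and 50 CPM) were the 2 of 8 loading genes past 1.5-fold there. In fibroblasts 5 of 5 and 4 of 8 were past it, and in NK cells 0 of 5 and 0 of 8. Loading genes were mostly below 1 in NK cells (7 of 8), conventional dendritic cells (6 of 8) and B cells (6 of 8) too. In mast cells or basophils 6 of 6 loading genes measured and 5 of 5 immunoproteasome genes had a ratio below 1. Of these 1 and 3 were past 1.5-fold, against a background of 13.4%. In mature dendritic cells 6 of 7 and 4 of 5 had a ratio below 1, with 0 past 1.5-fold. In neutrophils 3 of 6 loading genes measured and 2 of 5 immunoproteasome genes had a ratio below 1, and in T cells 4 of 8 and 3 of 5. Plasmacytoid dendritic cells, where most members were higher, had 4 of 7 loading and 4 of 5 immunoproteasome genes below 1, with 0 past 1.5-fold.

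The receptors that read class I sit mainly on NK cells and T cells. In NK cells the inhibitory pair Klrc1 (220 CPM in PTIR1 and 219 CPM in mock) and Klrd1 (730 and 720 CPM) was equal within counting error, and Klrd1 is also a marker of the NK gate. Of 10 receptor genes measured there 0 were lower and 1 higher by 1.5-fold, the Ly49 gene Klra1 at 34.8 and 16.3 CPM, and the Ly49 genes are near copies of each other whose reads can be counted on the wrong row. In T cells the co-receptor genes Cd8a (205 and 505 CPM) and Cd8b1 (140 and 378 CPM) were lower. CD8 barcodes, defined as above, numbered 30 of 115 in the PTIR1 library and 136 of 268 in the mock library. In macrophages 6 of 11 receptor rows were higher and 3 lower by 1.5-fold, against a background of 6.45% higher and 2.84% lower. These are mostly NK and T cell genes at low levels, such as Klrd1 at 39.9 and 22.6 CPM. The summed NK markers, Klrd1 among them, stood at 365 CPM in PTIR1 and 190 CPM in mock macrophages. That is 3.01% and 1.47% of the NK level, and its part in the receptor counts was not tested.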

How the data were processed

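Single-cell 3' libraries (1 PTIR1, 1 mock) were aligned and counted by the authors with Cell Ranger 5.0.0 on mm10, per the file headers and the submitters' processing notes, which also name Seurat 3.2.3. The deposited matrices hold whole-number UMI counts per gene and barcode, not normalized. From them, barcodes under 200 genes or above 10% mitochondrial UMIs were dropped and the rest kept (7567 PTIR1, 9328 mock). Scrublet's own cut called 87 and 0 doublets, so the barcodes with the highest scores were removed from both libraries at 1 rate, 0.8% per 1000 barcodes (458 and 696). A class needed 3 of its markers, with their sum at a fraction of at least 0.25 of the class level and any second class below 0.5 of the first. UMIs were summed per class and library. CPM ratios carry exact conditional binomial intervals and levels exact Poisson intervals. With 1 library per genotype no p-value was computed. Intervals were tried on counts simulated with only the counting error that they assume, and covered 95.6% of unchanged genes in macrophages. Because that simulation holds no spread between barcodes or tumours, it cannot show how well the intervals cover in the real data. The members are all named, and list genes are named by the distance of their interval from 1. Rfx5 in macrophages and Klrc1 and Klrd1 in NK cells were named after their values were seen. The members and lists were chosen with earlier results of these data known. There were 0 other per-sample columns. Tools were Python 3.11.15, scipy 1.17.1 and scanpy 1.11.5. Some items are not reported here.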

Additional observations from a re-analysis of the deposited data

Results flagged for a closer look

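For 5 of the 10 genes the ratio of PTIR1 over mock lay above 1 in at least 1 class and below 1 in at least 1 other, with counting intervals that did not include 1 on either side. The pair given for each gene is the class with the highest and the class with the lowest such ratio. In NK cells the intervals of H2-K1, B2m and H2-T23 also lay above 1. The difference between the classes was not tested, because 1 library per genotype gives no spread between tumours. H2-K1 had a ratio of 1.17 (1.07 to 1.27) in plasmacytoid dendritic cells and 0.727 (0.691 to 0.766) in fibroblasts. H2-D1 had a ratio of 1.18 (1.11 to 1.24) in plasmacytoid dendritic cells and 0.723 (0.704 to 0.742) in fibroblasts. B2m had a ratio of 1.11 (1.04 to 1.18) in plasmacytoid dendritic cells and 0.745 (0.688 to 0.807) in neutrophils, where macrophage transcripts stood at 18.5% and 12.6% of the macrophage level. H2-T23 had a ratio of 1.23 (1.09 to 1.38) in plasmacytoid dendritic cells and 0.470 (0.406 to 0.545) in fibroblasts. H2-Q7 had a ratio of 1.52 (1.02 to 2.26) in CT26 tumour cells, from 49 and 58 UMIs, and 0.505 (0.291 to 0.939) in fibroblasts, from 91 and 15 UMIs.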

How the results depend on the processing

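No paired analysis was possible because each genotype has 1 library. Of 98 ratios of a member in a class, 69 kept their direction under every alternative setting that gave a value (11 or 12). In macrophages 10 of 10 and in fibroblasts 10 of 10 did, against 6 of 10 in CT26 tumour cells and 4 of 10 in T cells. The setting with no minimum beyond 1 UMI in each library uses the main ratios, so it could not change a direction. Subtracting macrophage RNA likewise leaves the macrophage class as it is. Of the 98 ratios, 19 were lower by at least 1.5-fold, and 5 ratios were after thinning each barcode to 1000 UMIs. The share of all genes lower by that measure ran from 2.84% in macrophages to 15.7% in neutrophils. No such share was taken after thinning. In macrophages the count was 3, and 1 under the stricter gate, where H2-T23 and H2-Q7 missed the 1.5-fold limit with log2 ratios of -0.58 and -0.58. H2-Q7 also missed the limit there after thinning, at -0.49, and with ratios scaled by the median of all genes. In CT26 tumour cells the count was 2. It was 1 with doublets kept, with the stricter gate, with totals that leave out mitochondrial and ribosomal protein genes, with ratios scaled by the median of all genes and, chosen after seeing the data, with mixed barcodes counted. It was 0 with equal weight per barcode, after thinning and, chosen after seeing the data, without the 5 deepest barcodes. Thinning left the 6 non-classical genes and Nlrc5 under the minimum of 50 UMIs in CT26 tumour cells, so they were not counted, although the median of the members was -0.62 there, with H2-T23 at -1.79, H2-T22 at -1.36, H2-Q4 at -0.88 and H2-M3 at -2.08. Among members past 1.5-fold in a class, log2 ratios that reversed were those of H2-T23 in CT26 tumour cells with equal weight (0.056), and, after thinning, of H2-T22 (1.69) and H2-M3 (-0.31) in mature dendritic cells and of Nlrc5 in T cells (0.54) and CT26 tumour cells (0.38). Ratios within 1.5-fold also changed direction, such as H2-K1 in CT26 tumour cells after thinning (0.11) and H2-Q6 with equal weight (0.50). After thinning few UMIs of the rarer genes remain. The cause of the other changes was not tested. Depth limits Nlrc5 and H2-Q6 in the smaller classes, where some held fewer than 50 UMIs.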

Other observations

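Other class I and class I-like rows were measured in few classes. Fcgrt, which encodes the heavy chain of the neonatal Fc receptor and also pairs with beta-2 microglobulin, ran against the members. It held 61.3 CPM in PTIR1 and 36.8 CPM in mock macrophages, a ratio of 1.66 (1.55 to 1.78), and 30.9 and 17.1 CPM in CT26 tumour cells, a ratio of 1.81 (1.52 to 2.15). In fibroblasts it held 121 and 89.4 CPM. Of 20 such rows, 7 were measured in macrophages, with 1 lower and 1 higher by 1.5-fold. The lower one was H2-T24, a T region heavy chain gene, at 12.5 CPM in PTIR1 and 19.2 CPM in mock macrophages. Hfe, the heavy chain that regulates iron uptake, held 19.3 and 17.4 CPM there, and Mr1, which presents vitamin B metabolites, 3.75 and 3.85 CPM. In NK cells 4 such rows were measured and 3 were lower by 1.5-fold, against a background of 2.93%, with a median log2 ratio of -0.65. They were Cd1d1, which presents lipids, at 6.99 CPM in PTIR1 and 13.4 CPM in mock NK cells, H2-Q1 at 5.05 and 8.02 CPM, and Mr1 at 5.83 and 8.99 CPM. All 3 were at low levels, and the counting interval lay below 1 for only 1 of the 4 rows measured.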
